A study of Mus musculus with 12 samples.

Results

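The gene areas described here are the 200 autosomal mouse gene areas that carried most 5-methylcytosine (5mC) signal across 5 T cell types. They were chosen as gene areas of at least 1000 bases whose signal, averaged over the 5 libraries made with the 5mC antibody, was at least 2.5, and each gene name was counted once. They are 200 of 27372 autosomal gene areas of that length, in a table of 37752 gene areas in all. The 5mC values therefore chose the 200 gene areas, and those values are given below as a description only.

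5mC is the methylated form of cytosine that DNA methyltransferases place mostly at CG dinucleotides, and in mammals it covers most of the genome outside CG-rich promoters. Tet enzymes oxidise it to 5-hydroxymethylcytosine (5hmC), which is commonly found in the bodies of active genes. Repeated sequence, pseudogenes and genes used only in the germ line are known as places where 5mC is dense in somatic cells.

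Genomic DNA from Th1, Th2, iTreg, Th17 and naive T cells was sheared by sonication, denatured and precipitated with an antibody against 5mC (Eurogentec) or 5hmC (Active Motif), and the precipitated DNA was sequenced. Th17 cells also gave an input library, which saw no antibody, and a library precipitated with control IgG (BioXCell), so the 12 libraries held 1 per cell type and antibody. The design text of the series names mice whose Tet2 gene is floxed and cut by a CD2-driven Cre, together with littermates of wild type on a mixed background, and the genotype behind each library is not given in the sources used here. How the naive T cells were isolated and how the other 4 types were grown is likewise not given. With 1 library per group there is no spread between replicates, no test is possible, and each difference below compares libraries and has no replicate check. In such bulk DNA, fewer cells with a mark and less mark per cell cannot be told apart.

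The deposited values are signals averaged over each gene area and rounded to 0.1, and the read depth behind them is unknown. Over all 37752 gene areas the library medians were 0.6 to 0.7 for 5mC, 9.9 to 12.0 for 5hmC, 0.8 for IgG and 1.7 for input. The cell type labels of 2 of the 5hmC libraries are in doubt. Il17a and Il17f, the cytokine genes that define Th17 cells, had 5hmC signals of 31.3 and 32.8 in the library labelled iTreg and of 8.8 and 5.3 in the library labelled Th17. Foxp3, the transcription factor of regulatory T cells, had 25.3 in the library labelled iTreg and 30.9 in the library labelled Th17. Both are called by their labels throughout, and the overall 5hmC median and counts over several libraries are also given without them.

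The promoters of 6 of the gene areas show the range of sequence behind them. Each is the RefSeq sequence of build GRCm38.p6, from 250 bases before to 50 bases after the gene start, written 5′ to 3′ in lower case with every CG dinucleotide, the usual site of 5mC, in capitals. 3110070M22Rik (chr13:119488335-119488634, minus strand) and Tmem125 (chr4:118543677-118543976, minus strand) had the highest and the third highest 5hmC signal of the 200. Cdk5rap2 (chr4:70410386-70410685, minus strand) had the largest ratio of 5mC to input, and Eef2 (chr10:81176381-81176680, plus strand) is a housekeeping gene with much more 5hmC in naive cells. Oxct2b (chr4:123115998-123116297, plus strand) and Actl7b (chr4:56741376-56741675, minus strand) are genes of the testis.
3110070M22Rik: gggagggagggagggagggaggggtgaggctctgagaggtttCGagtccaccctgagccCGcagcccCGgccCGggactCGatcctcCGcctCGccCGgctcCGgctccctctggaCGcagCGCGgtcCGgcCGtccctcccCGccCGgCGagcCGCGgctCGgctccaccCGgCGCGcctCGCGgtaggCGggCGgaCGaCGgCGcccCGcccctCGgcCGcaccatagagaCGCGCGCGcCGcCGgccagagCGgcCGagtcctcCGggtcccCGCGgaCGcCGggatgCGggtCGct
Tmem125: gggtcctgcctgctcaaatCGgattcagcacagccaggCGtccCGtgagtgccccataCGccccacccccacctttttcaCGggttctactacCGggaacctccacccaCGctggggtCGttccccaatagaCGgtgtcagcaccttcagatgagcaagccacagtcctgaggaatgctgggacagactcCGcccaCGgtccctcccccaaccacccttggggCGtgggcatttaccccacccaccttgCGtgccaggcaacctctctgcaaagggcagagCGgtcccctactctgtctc
Cdk5rap2: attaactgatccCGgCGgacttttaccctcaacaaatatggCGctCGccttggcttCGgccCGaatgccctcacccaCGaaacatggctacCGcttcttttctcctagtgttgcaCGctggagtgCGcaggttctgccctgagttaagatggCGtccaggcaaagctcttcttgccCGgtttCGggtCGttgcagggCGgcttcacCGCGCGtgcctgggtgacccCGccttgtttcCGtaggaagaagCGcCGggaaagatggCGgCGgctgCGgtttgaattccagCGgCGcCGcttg
Eef2: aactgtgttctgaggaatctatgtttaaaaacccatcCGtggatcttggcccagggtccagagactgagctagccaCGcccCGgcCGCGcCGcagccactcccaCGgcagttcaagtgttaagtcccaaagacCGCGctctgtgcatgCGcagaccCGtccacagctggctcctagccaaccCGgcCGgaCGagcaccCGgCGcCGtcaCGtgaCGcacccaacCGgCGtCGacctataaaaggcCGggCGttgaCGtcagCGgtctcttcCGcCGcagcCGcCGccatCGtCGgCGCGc
Oxct2b: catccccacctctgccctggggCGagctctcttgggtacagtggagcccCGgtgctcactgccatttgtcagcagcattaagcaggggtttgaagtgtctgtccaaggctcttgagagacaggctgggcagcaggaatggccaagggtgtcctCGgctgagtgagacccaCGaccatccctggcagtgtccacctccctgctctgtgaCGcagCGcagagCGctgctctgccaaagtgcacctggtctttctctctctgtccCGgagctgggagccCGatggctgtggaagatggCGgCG
Actl7b: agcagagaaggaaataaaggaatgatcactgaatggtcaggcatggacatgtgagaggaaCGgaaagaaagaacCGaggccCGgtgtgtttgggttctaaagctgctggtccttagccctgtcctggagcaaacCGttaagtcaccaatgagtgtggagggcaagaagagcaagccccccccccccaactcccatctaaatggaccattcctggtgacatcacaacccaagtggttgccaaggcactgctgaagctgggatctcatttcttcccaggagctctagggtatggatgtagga
The CG dinucleotide occurred 48 times in the 300 bases of 3110070M22Rik, 34 times in Eef2, 28 times in Cdk5rap2, 14 times in Tmem125, 11 times in Oxct2b and 4 times in Actl7b. Over the 15900 promoters matched to the other gene areas the median was 15, and 62.9% held 10 or more, while over all 32851 listed promoters of 300 bases the median was 7 and 43.5% held 10 or more. The window of 3110070M22Rik was also the richest of the 6 in G and C, at 79.3%, and that of Actl7b the poorest, at 52.0%. The 200 gene areas thus include CG-rich and CG-poor promoters. Only 108 of the 200, or 54.0%, and 58.5% of the other gene areas had a listed promoter. In these 108 the median was 11.2, and 53.7% held 10 or more. Among protein-coding gene areas below 3000 bases, 38.6% of the 200 and 40.3% of the others held 10 or more. At 3000 bases and longer it was 70.4% and 67.8%. Gene areas without a listed promoter are not covered, so these values are a description. The signals below are averages over whole gene areas, not over these windows.

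The mean 5mC signal of the 200 gene areas ran between 2.5 and 369, with a median of 2.90, against a median of 0.74 in the other 27172. Most of them lay close to the limit. Only 8 had a mean of 20 or more, 17 lay between 5 and 20, 29 between 3.5 and 5, and 146 between 2.5 and 3.5. At the limit, 8 gene areas with a mean of 2.5 were taken and 8 with a mean of 2.48 were not. Aldoart2, Ankrd23 and Dtwd1 stood just inside, and Bdkrb1, Crlf2 and Gm11452 just outside.

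The high signal was shared by the cell types. When gene areas were chosen on the mean of the other 4 5mC libraries, the library left out had a median of 3.3 in Th1, 2.9 in Th2, 2.6 in iTreg, 2.6 in Th17 and 3.3 in naive cells, against 0.7 or 0.8 in the gene areas not chosen. The share of chosen gene areas at 2.5 or more in the library left out was 88.3% for Th1, 73.2% for Th2, 53.3% for iTreg, 62.2% for Th17 and 81.6% for naive cells. Over all 27372 gene areas that share was 1.55% in Th1, 0.884% in Th2, 0.65% in iTreg, 0.68% in Th17 and 1.26% in naive cells. The order among the 200 was looser: Spearman's rho between 5mC libraries was 0.348 to 0.559 over the 200, a range that the limit itself narrows, and 0.861 to 0.898 over all gene areas.

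The highest 5mC signals came from gene areas known to be repeated in the genome, whose reads cannot be assigned to 1 copy with certainty, so their values are uncertain. Rn18s, the gene of 18S ribosomal RNA (chromosome 17, 39983298 to 39985146, mm9), led the list. Its 5mC signal was 379.0 in Th1, 343.5 in Th2, 335.7 in iTreg, 320.8 in Th17 and 465.0 in naive cells, with an input signal of 181.8 and an IgG signal of 918.9. The IgG library thus stood above every 5mC library at this gene. Gm6780, Gm9580 and LOC100502728 overlap it or each other between 39978593 and 40035329 of chromosome 17, and their values are not independent. Mean 5mC was 229 at Gm6780, 167 at Gm9580 and 30.0 at LOC100502728, while input was 354.4, 167.5 and 36.9 in the same order. Averaged over the 5 libraries, the deposited 5mC signal at these last 3 was no higher than the input signal. The scaling between libraries is unknown, and the library medians were 0.6 to 0.7 for 5mC and 1.7 for input. Statements of 5mC above or below input, here and below, therefore hold only for the values as deposited.

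Sfi1 and its neighbours on chromosome 11 (3024023 to 3093465) were similar. Sfi1, which encodes a centrosomal protein, had a mean 5mC of 33.0 and an input of 86.9. Gm11400, which lies inside it, had 76.7 and 99.0, and the pseudogene Pisd-ps1 beside it had 12.6 and 41.9. At all 3, mean 5mC as deposited was below input. Dux, a homeobox gene of a repeated array that is known for its activity in the early embryo, stood with LOC100504180, 4933403O03Rik and Gm4981 within 57685719 to 57699407 of chromosome 10. Their mean 5mC lay between 3.08 and 7.86 and their input between 4.6 and 6.6. Hjurp, a chaperone of centromeric histone, Heatr7b1 and Ugt1a1, which conjugates bilirubin, formed another such group on chromosome 1 (90108533 to 90174153), with mean 5mC of 3.22 to 5.30 and input of 9.8 to 12.6.

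**Figure D1:**
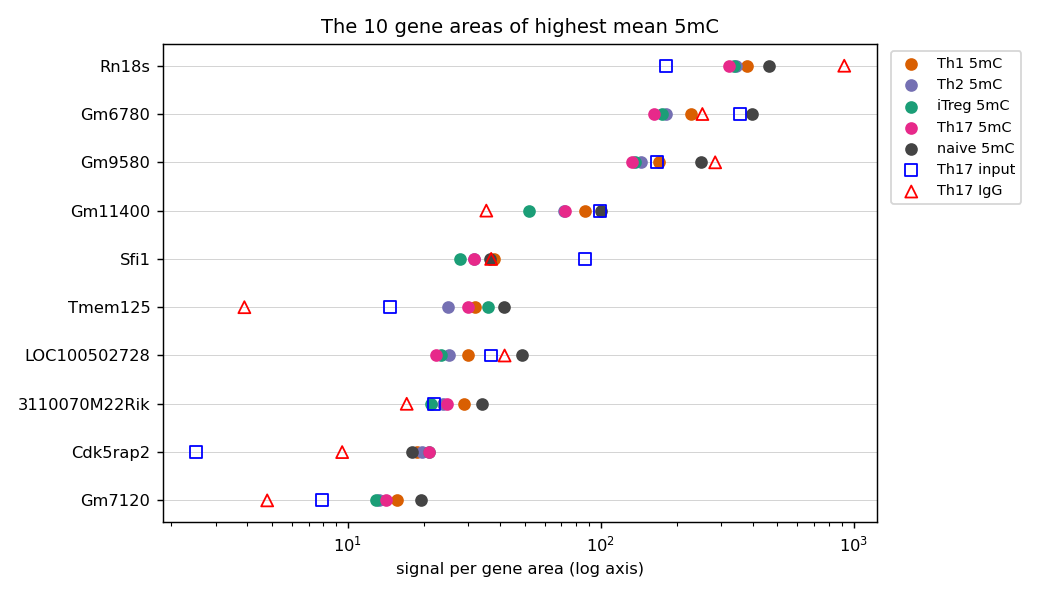
Signal of the 10 gene areas of highest mean 5mC on a log axis, with 1 filled circle per 5mC library (Th1, Th2, iTreg, Th17 and naive), an open square for Th17 input DNA and an open triangle for Th17 control IgG. Input lies above all 5 5mC circles at Sfi1, and below all of them at Tmem125 and Cdk5rap2.

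Outside these arrays some gene areas had high 5mC over low input. Cdk5rap2, a centrosomal protein gene (chromosome 4, 69884057 to 70071400, mm9 as are all gene area positions here), had 18.8 in Th1, 19.6 in Th2, 21.0 in iTreg, 21.0 in Th17 and 17.9 in naive cells. Its input was 2.5 and its IgG 9.5, and its ratio of mean 5mC to input, 7.86, was the largest of the 200. Tmem125, a transmembrane protein gene (chromosome 4, 118213545 to 118216330), had 31.9 in Th1, 24.9 in Th2, 35.9 in iTreg, 30.0 in Th17 and 41.5 in naive cells, over an input of 14.7. Input at Tmem125 was thus itself far above the median of 1.8 in the other gene areas. Gm4230 (mean 5mC 7.08, input 1.5) and Gm4601 (4.16, 1.2) also had more than 3 times as much 5mC as input. Kit, the receptor of stem cell factor, had a mean 5mC of 5.48 over an input of 2.3, and the neural adhesion gene Chl1, the longest of the 200 with 222159 bases, had 4.48 over 1.9.

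The 200 gene areas also had more input signal than the others. Median input was 2.5 in the 200 (quartiles 2.1 and 3.0) and 1.8 in the others (1.4 and 2.1). Input was at least 3.6, which is 2-fold above the median of the others, in 32 of the 200, or 16%, against 0.252% of all 27372 gene areas. As deposited, mean 5mC exceeded input in 139 of the 200 (69.5%, against 2.27% of all), a count that the choice by 5mC favours. Such counts also depend on the scaling between libraries, which is unknown. Within Th17 cells, the only type with its own input, 5mC exceeded input in 113 (56.5%, against 1.83%). Mean 5mC was at least 2-fold above input in 26 (13%, against 0.179%). The 32 gene areas of high input had a median 5mC of 5.93, a median input of 7.25 and a median 5hmC of 78.3. The remaining 168 had 2.84, 2.4 and 20.7. Across the 200, Spearman's rho between mean 5mC and input was 0.177, and across all gene areas it was 0.696; the libraries share gene length, sequence and mappability, so these are descriptions.

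**Figure D2:**
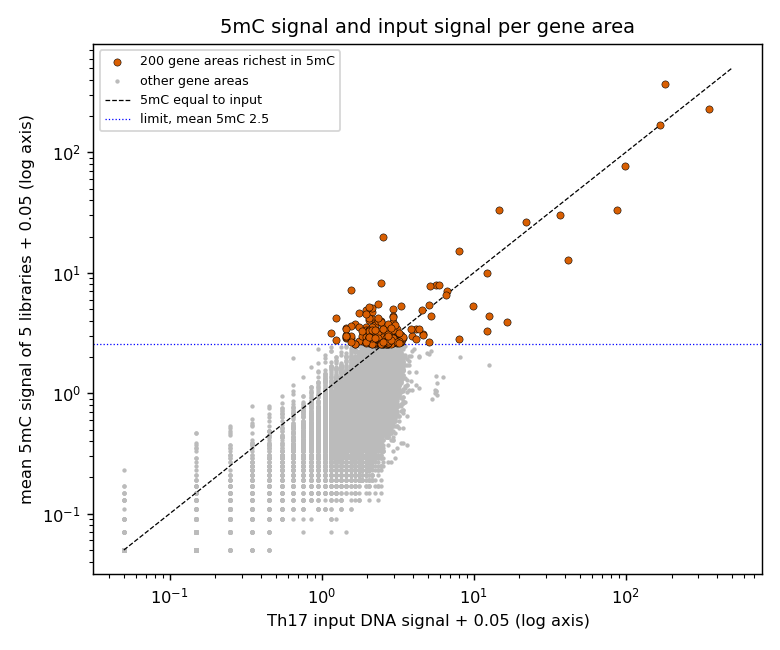
Mean 5mC signal of the 5 libraries against Th17 input DNA signal, 1 point per gene area, with 0.05 added to both and both axes on a log scale. The 200 gene areas richest in 5mC (orange) lie at or above the dotted limit at 2.5 and most gather at an input of 2 to 3. A trail of gene areas of high input, which include repeated ones, runs on both sides of the dashed line of equal signal up to an input of 354. Of the 32 with an input of at least 3.6, 10 lie above that line, among them Rn18s.

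The control IgG library was high at a few of the 200. Median IgG was 1.3 in the 200 and 0.9 in the others, and 26 of the 200 were listed at 0 (13%, against 13.4% of all gene areas). IgG reached 10 or more in 14 of the 200, or 7.00%, against 0.234% of all gene areas. They include 8 gene areas of the arrays and of chromosome 13, Fut1, Izumo1 and Rasip1 on chromosome 7, and Dtwd1 on chromosome 2. The 3 on chromosome 7 had an IgG signal of 84.8 to 158. With high input and high IgG both set aside, 162 gene areas were left, with a median 5mC of 2.84, a median input of 2.4 and a median 5hmC of 19.8. The part of input and IgG in the 5mC signal was not tested.

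The 200 gene areas were short. Their median length was 2167 bases (quartiles 1442 and 6326), against 12432 bases (3904 and 34046) in the others. Of all gene areas from 1000 to below 1500 bases long, 54, or 2.38%, were among the 200. The share was 1.86% (62) from 1500 to below 3000 bases, 0.718% (48) from 3000 to below 10000, 0.273% (28) from 10000 to below 50000 and 0.166% (8) at 50000 bases and over. This share fell at each step of length. In the other gene areas median 5mC did not fall in this way, at 0.52, 0.58, 0.76, 0.82 and 0.72 from the shortest to the longest class. Over all gene areas, Spearman's rho between mean 5mC and length was 0.0909. The spread between libraries differed with length too. The ratio of the highest to the lowest 5mC library had a median of 1.82 in the 116 shorter than 3000 bases and of 1.39 in the 84 that were longer, and it reached 2 in 45 and 3 of them.

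**Figure D3:**
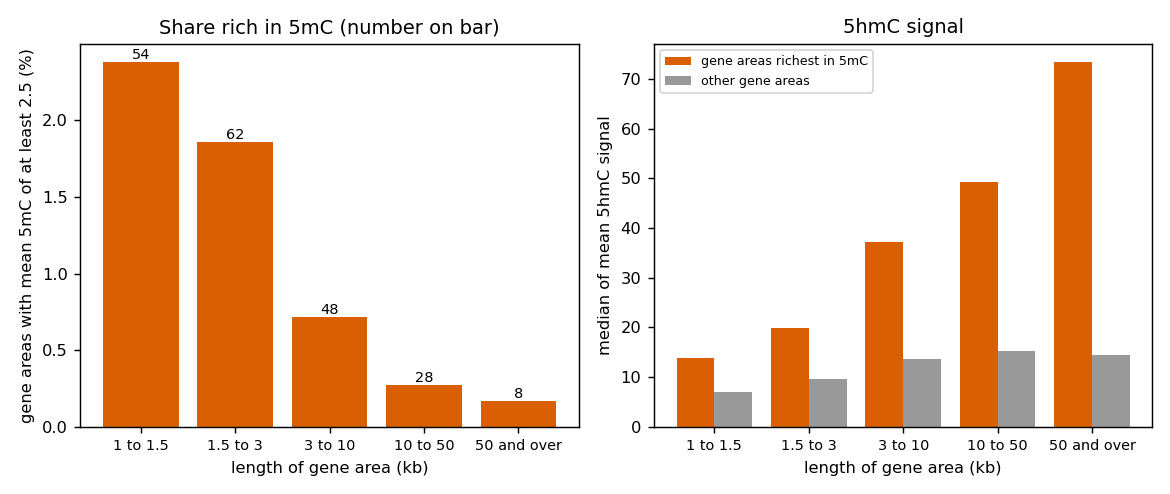
Left, percent of all gene areas in each length class that had a mean 5mC of at least 2.5, with their number on the bar. Right, median of the mean 5hmC signal in the gene areas richest in 5mC (orange) and in the other gene areas (grey) of each class. The share falls from 2.38% to 0.166% with length, while median 5hmC in the 5mC-rich areas climbs from 13.8 to 73.4.

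By name, 102 of the 200 were ordinary named genes and 57 were predicted genes with a Gm number. Predicted genes made up 28.5% of the 200 and 26.6% of all gene areas. RIKEN cDNA clones gave 17 (8.50%, against 8.27%) and other clone or locus numbers 9 (4.50%, against 2.58%). Olfactory and trace amine receptors gave 4 (2.00%, against 1.94%), namely Olfr324, Olfr550, Olfr750 and Taar3. By the gene type in RefSeq, matched by gene ID, 123 were protein-coding (61.5%, against 67.5%), 28 were pseudogenes (14%, against 10.5%) and 15 were long noncoding RNAs (7.50%, against 5.97%). No ID was found in that table for 32 (16%, against 14.7%). Transcribed pseudogenes gave 1 (0.500%, against 1.04%). The make-up by class was thus close to that of all gene areas. No T cell receptor segment (0 of 17), immunoglobulin segment (0 of 13), histone cluster gene (0 of 13), defensin (0 of 38), keratin (0 of 63) or ribosomal protein gene (0 of 86) was among them.

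The 200 make up 0.731% of all gene areas. A count of 0 in the small classes above or in lists of the sizes below is thus at the background. Such counts are given as a description. None of 62 measured germ line genes reached the limit, and the nearest, D1Pas1, had a mean 5mC of 2.22. None of 61 imprinted genes did (the nearest, Rtl1, had 1.86), and none of 19 Tet, Dnmt and related genes (the nearest, Dnmt1, had 1.66). Of 31 housekeeping genes, Eef2, the elongation factor that moves the ribosome along the message, and Rab7, a GTPase of late endosomes, did. The medians of these 4 lists lay between 0.82 and 1.04. All were above the median of 0.74 in gene areas outside the 200 and within their quartiles of 0.44 and 1.08.

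None of the 62 measured genes of the germ line list reached the limit, as given above. Whether genes used in testis or sperm are commoner here than over all gene areas was not tested. Some did occur, and 15 of them, picked after the values were seen, are described here with no count against a background. They include Izumo1, which sperm need to fuse with the egg, Tssk2 and the Smok2 pair, which are kinases of spermatids, the actin-like Actl7a and Actl7b, the sperm head protein Ccin, the flagellar protein Tekt2, the testis hormone Insl3, and the retrogenes Oxct2a, Oxct2b, Aldoart2 and Pabpc2. Mean 5mC lay between 2.5 and 4.22 and length between 1255 and 6470 bases. Input lay between 1.4 and 5.0 with a median of 2.4, and IgG between 0.1 and 158 with a median of 0.8. Tssk2 had the most 5mC of the 15, with 5.5 in Th1, 3.5 in Th2, 3.7 in iTreg, 3.2 in Th17 and 5.2 in naive cells, over an input of 2.9. Their mean 5hmC, on which no limit was set, lay between 3.96 and 122. Actl7b and Actl7a, neighbours on chromosome 4, had the lowest, with means of 3.96 and 4.74, and Smok2a had the highest. Mean 5mC as deposited was below input at Smok2a (2.60, input 5.0) and Smok2b (3.34, input 4.1). It was also below input at Aldoart2 (2.5, input 2.7) and Tekt2 (2.58, input 2.6). Izumo1, with a mean 5hmC of 119, had an IgG of 157.7.

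The 200 gene areas fell into fewer loci than gene areas. After overlapping gene areas were merged there were 184 loci, and 13 of these held 29 of the 200. With gene areas up to 10 kb apart joined, there were 169 loci, and 21 held 52 of the 200. Chromosome 10 had the largest share of its gene areas among the 200, with 24 of 1305 or 1.84%, and chromosome 19 the smallest, with 3 of 897 or 0.334%. Within chromosome 10, 7 of 83 gene areas between 78 and 80 Mb and 7 of 92 between 80 and 82 Mb were included, or 8.43% and 7.61%, against 0.731% over all gene areas. The Dux array described above gave 4 of 27 between 56 and 58 Mb, or 14.8%. Eef2 and the kinase gene Dapk3 lie side by side between 80 and 82 Mb (80639375 to 80655941). Gm19886 lies inside Eef2, so the values of these 2 gene areas are not independent. Mean 5mC was 7.80 at Eef2, 5.36 at Gm19886 and 4.86 at Dapk3, and input was 5.9, 5.0 and 4.5 in the same order. The input of the other gene areas in the stretches from 78 to 80 and from 80 to 82 Mb had medians of 2.5 and 2.6, above the 1.8 of all others.

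5hmC was higher in the 200 gene areas than in the others. It entered the choice only to pick 1 row for a repeated name. Of the 200 names 2 had more than 1 row, and 0 of the 200 kept a row other than that of highest 5mC. The median of mean 5hmC was 23.3 (quartiles 13.6 and 53.4) in the 200 and 13.5 (8.12 and 21.1) in the others. Of the 200, 150 lay above the median of the others (75%, against 50.1% of all gene areas), and 24 had a mean of at least 100 (12.0%, against 0.329%). By library, the median of the 200 was 21.9 in Th1, 21.6 in Th2, 23.3 in the library labelled iTreg, 17.4 in the library labelled Th17 and 32.4 in naive cells. In the others it was 12.8, 13.1, 13, 11.6 and 15.2 in the same libraries. The naive library was the highest and the library labelled Th17 the lowest in both sets. With the libraries labelled iTreg and Th17 left out, the median over the 200 was 24.9, with 154 above the median of the others (77.0%, against 50.2% of all) and 23 at 100 or more (11.5%, against 0.391%).

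Median 5hmC was higher in the 200 in each length class, and the gap was wider in the longer ones. Median 5hmC was 13.8 in the 200 and 7.02 in the others below 1500 bases, 19.8 in the 200 and 9.52 in the others from 1500 to below 3000 bases, and 37.2 in the 200 and 13.7 in the others from 3000 to below 10000 bases. It was 49.3 in the 200 and 15.3 in the others from 10000 to below 50000 bases, and 73.4 in the 200 and 14.4 in the others at 50000 bases and over. Median IgG of the 200 moved with the same classes, at 0.8, 0.8, 1.6, 2.45 and 6.55 from the shortest to the longest, and the part of IgG was not tested. The longest class held 8 gene areas, among them Sfi1 and LOC100502728 of the repeated arrays. Spearman's rho between mean 5mC and mean 5hmC was 0.304 over the 200 and 0.655 over all gene areas. In the 200, rho of mean 5hmC with IgG was 0.456 and with input 0.381.

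3110070M22Rik, a noncoding RNA gene of 1127 bases on chromosome 13 (120276063 to 120277190), had the most 5hmC of the 200. Its signal was 1111.3 in Th1, 1087.5 in Th2, 1134.3 in the library labelled iTreg, 1251.9 in the library labelled Th17 and 648.9 in naive cells. Mean 5mC there was 26.5, input 22 and IgG 17.1. Gm7120, which overlaps it, and its neighbour 4833420G17Rik had mean 5hmC of 216 and 181 and mean 5mC of 15.1 and 7.70. Tmem125 had 830.8 in Th1, 758.2 in Th2, 1050.1 in the library labelled iTreg, 882.6 in the library labelled Th17 and 563.7 in naive cells. Smo, the transducer of Hedgehog signals (chromosome 6, 29685496 to 29711365), had 624.3 in Th1, 676.8 in Th2, 687.5 in the library labelled iTreg, 688.3 in the library labelled Th17 and 418.7 in naive cells, with a mean 5mC of 9.96 and an input of 12.1. Naive cells were the lowest at all 3, while 5mC in naive cells was the highest at 3110070M22Rik and Tmem125.

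At the low end, 5hmC was scarce at 5 short gene areas, 4 of which are pseudogenes in RefSeq. Gm4875 had a mean 5hmC of 2.46, Gm12904 of 2.78, Gm270 of 2.94, Gm5289 of 2.94 and Ck-ps1 of 3.40. Their mean 5mC lay between 2.52 and 2.84, whereas Smok2a, with a mean 5mC of 2.60, had a mean 5hmC of 122. Median 5hmC was 10.2 in the 28 pseudogenes, 38.3 in the 15 long noncoding RNAs and 23.6 in the 123 protein-coding genes. The median lengths of these 3 types were 1226, 2731 and 3620 bases.

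**Figure D4:**
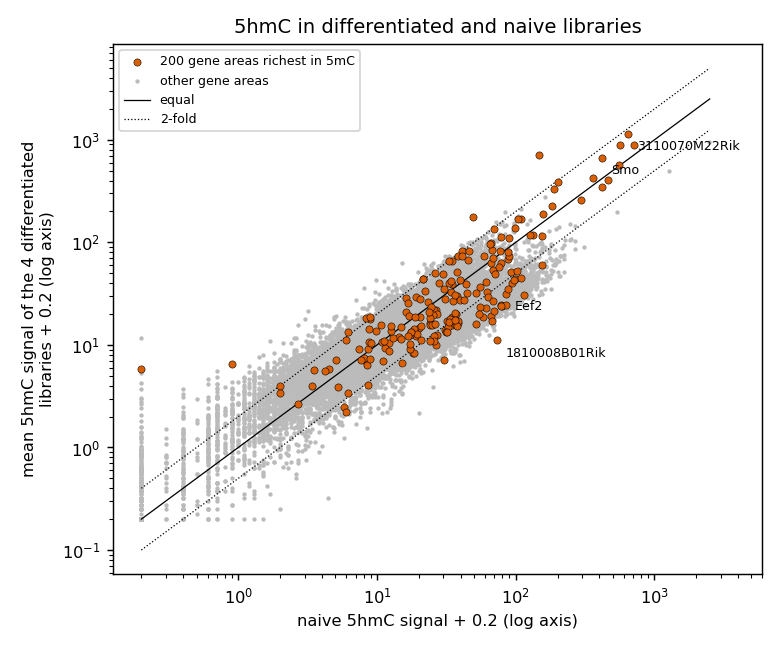
Mean 5hmC of the Th1, Th2, iTreg and Th17 libraries as labelled against 5hmC in the naive library, 1 point per gene area, with 0.2 added and log axes. The solid line marks equal signal and the dotted lines 2-fold. Orange points are the 200 gene areas richest in 5mC and include Eef2 and 1810008B01Rik below the band.

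Differences among the cell types in 5mC were small at most of the 200. On log2(value + 0.2), the median difference from naive was 0.04 in Th1, -0.14 in Th2, -0.23 in iTreg and -0.22 in Th17. Over all gene areas it was 0.00, -0.09, -0.17 and -0.17. Adding 0.2 makes a log2 difference understate the change of low gene areas. At least 2-fold more 5mC than in naive cells was found at 4 of the 200 in Th1 (2.00%, against 1.46% of all), 1 in Th2 (0.500%, against 0.983%), 4 in iTreg (2.00%, against 0.756%) and 0 in Th17 (against 0.921%). At least 2-fold less was found at 2 in Th1 (1.00%, against 1.47%), 7 in Th2 (3.5%, against 2.54%), 14 in iTreg (7.00%, against 3.72%) and 9 in Th17 (4.50%, against 3.01%). These 4 comparisons share the naive library.

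Most of those counts came from short gene areas, where the background was higher. Among gene areas under 3000 bases, iTreg had at least 2-fold less 5mC than naive cells at 13 of 116 (11.2%), against 12% of all 5608 of that length. The same share was 6.90% against 9.74% in Th17, 6.03% against 8.88% in Th2 and 1.72% against 5.3% in Th1. Shares of higher 5mC in these short gene areas were 3.45% against 5.49% in Th1, 0.862% against 3.89% in Th2, 2.59% against 2.67% in iTreg and 0% against 3.66% in Th17. The choice of gene areas by high 5mC bears on these shares, so nothing is read from them. Of the 84 gene areas of 3000 bases and longer, 1 was higher in iTreg (1.19%, against 0.262% of all 21764 of that length), 1 was lower in iTreg (against 1.58%) and 1 was lower in Th17 (against 1.28%).

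When each library was divided by its median-ratio size factor, the median of all gene areas moved by -0.03, 0.13, 0.23 and 0.23 on the log2 scale in Th1, Th2, iTreg and Th17 against naive. After that scaling, Th1 was at least 2-fold higher at 1 (against 0.749% of all) and lower at 2 (against 0.932%), and Th2 was higher at 1 (against 1.07%) and lower at 5 (against 1.35%). For iTreg the counts were 5 higher (against 1%) and 5 lower (against 1.69%), and for Th17 they were 2 higher (against 1.18%) and 3 lower (against 1.25%). The excess of lower over higher counts in iTreg was thus absent after scaling.

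As deposited, 5mC was below naive in each of the 4 differentiated libraries at 61 of the 200 (30.5%, against 22.2% of all) and above naive in each at 22 (11.0%, against 6.5%). After scaling the counts were 43 below (21.5%, against 21.3%) and 48 above (24.0%, against 19.1%), so the balance between the directions depends on the scaling. The library with strictly the most 5mC was Th1 at 74 (37.0%, against 25.3%), Th2 at 19 (9.50%, against 9.4%) and iTreg at 23 (11.5%, against 6.44%). It was Th17 at 8 (4.00%, against 5.67%) and naive at 61 (30.5%, against 22.2%). A gene area with a tie for the top is in none of these shares. Such ties were commoner over all gene areas, where the rounded values are lower. Ties with naive likewise lower the shares below or above naive as deposited. The part of ties was not tested, so no excess in the 200 is read from these shares.

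Few gene areas stood out by cell type in 5mC. H2-Pa, a pseudogene of the major histocompatibility complex (chromosome 17, 34221557 to 34222796), had 5.3 in Th1, 4.3 in Th2, 4.7 in iTreg and 3.7 in Th17, against 2.0 in naive cells. All 4 differentiated libraries were above naive, with log2 differences of 1.32, 1.03, 1.16 and 0.83. Il17c, a cytokine of the interleukin 17 family that epithelia are known to make (chromosome 8, 124945982 to 124947538), had 4.1 in Th1, 3.4 in Th2, 3.4 in iTreg and 2.6 in Th17, against 1.9 in naive cells. Its 5hmC ran the other way, with 33.3 in Th1, 36.5 in Th2, 53.2 in the library labelled iTreg and 46.2 in the library labelled Th17, against 97.3 in naive cells. Gm8357 had 3.7 in Th1, 4.9 in Th2, 6.2 in iTreg and 5.6 in Th17, against 2.8 in naive cells. These 3 gene areas are 1556 bases long or shorter.

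Low outlying values were also found in short gene areas. Krtcap3 had 2.8 in Th1, 2.8 in Th2, 0.9 in iTreg and 3.6 in Th17, against 4.0 in naive cells. Cfd, complement factor D, had 3.8 in Th1, 3.2 in Th2, 1.1 in iTreg and 2.4 in Th17, against 4.1 in naive cells. In both the iTreg library stood alone below the rest. Gm5067 had 1.0 in Th17 and 2.7 to 3.8 elsewhere, and Gm4875 had 1.1 in Th2 and 1.9 to 3.9 elsewhere. Gcnt4, a glycosyltransferase gene, had the largest ratio of highest to lowest 5mC library of the 200, with 4.8 in Th1, 1.7 in Th2, 1.0 in iTreg, 2.7 in Th17 and 3.3 in naive cells. BC024386 and Ck-ps1 were lower in all 4 differentiated libraries, with 1.7 to 2.4 and 1.7 to 2.8, against 4.6 in naive cells at both.

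The steadiest gene areas were longer. Gaa, the lysosomal glucosidase gene of 17731 bases, had 2.6 in Th1, 2.6 in Th2, 2.4 in iTreg, 2.5 in Th17 and 2.5 in naive cells. Vangl2, a gene of planar cell polarity, Nolc1, a nucleolar protein gene, Gm11744 and Gm10536 had ratios of highest to lowest library of 1.12 to 1.13. Cdk5rap2 and Gm4230 combined a high 5mC signal with a ratio of 1.17. Rab7 varied between 2.5 and 3.1.

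As deposited, differences from naive of at least 2-fold were commoner for 5hmC than for 5mC, and mostly toward lower signal. The same held over all gene areas. In the libraries labelled Th17, for example, 24.2% of all were lower in 5hmC and 3.01% in 5mC. The antibodies are not on a like footing here, because 5mC values are far lower and the 200 were chosen on them. At least 2-fold less 5hmC than in naive cells was found at 47 of the 200 in Th1 (23.5%, against 14.9% of all), 39 in Th2 (19.5%, against 13.7%), 50 in the library labelled iTreg (25%, against 13.6%) and 65 in the library labelled Th17 (32.5%, against 24.2%). At least 2-fold more was found at 9 in Th1 (4.50%, against 4.49%), 9 in Th2 (4.50%, against 5.06%), 12 in the library labelled iTreg (6.00%, against 4.61%) and 15 in the library labelled Th17 (7.50%, against 4.92%). The share of lower gene areas was above the background in each library. That of higher ones was near it in Th1 and Th2 and above it in the libraries labelled iTreg and Th17. The median log2 difference from naive in the 200 was -0.24 in Th1, -0.20 in Th2, -0.27 in the library labelled iTreg and -0.43 in the library labelled Th17. Over all gene areas it was -0.22, -0.18, -0.20 and -0.33 in the same libraries.

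**Figure D5:**
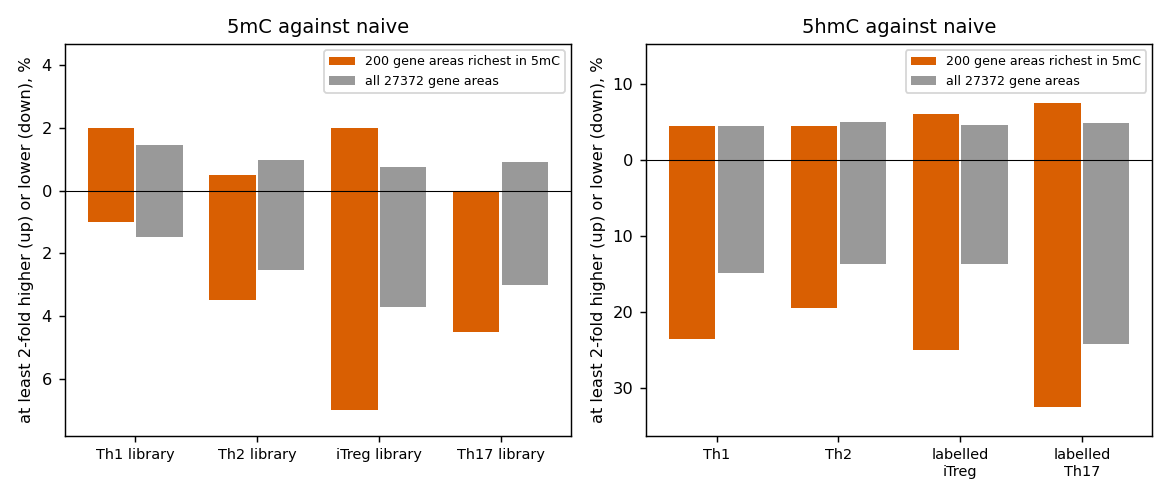
Percent of gene areas with at least 2-fold more (bars up) or less (bars down) signal than the naive library, for 5mC (left) and 5hmC (right) in each differentiated library, in the 200 gene areas richest in 5mC (orange) and in all 27372 gene areas (grey). For 5hmC the orange bars reach down to 32.5% in the library labelled Th17, against 24.2% of all gene areas, and the scales of the panels differ.

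The shares were also taken by length. Among gene areas of 3000 bases and longer, the share with at least 2-fold less 5hmC was 21.4% against 13.9% in Th1, 19% against 12.5% in Th2, 20.2% against 12.5% in the library labelled iTreg and 27.4% against 23.7% in the library labelled Th17. In shorter gene areas it was 25% against 18.6%, 19.8% against 18.4%, 28.4% against 17.9% and 36.2% against 26.5% in the same libraries. Shares of at least 2-fold more 5hmC in shorter gene areas lay below the background, at 5.17% against 11.3% in Th1, 4.31% against 11.3% in Th2, 7.76% against 11.1% in the library labelled iTreg and 8.62% against 11.8% in the library labelled Th17. At 3000 bases and longer these shares lay above the background. They were 3.57% against 2.73%, 4.76% against 3.46%, 3.57% against 2.94% and 5.95% against 3.14% in the same libraries. Those shares rest on only 3, 4, 3 and 5 of 84 gene areas.

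Scaling the 5hmC libraries moved the median of all gene areas up by 0.24, 0.19, 0.21 and 0.36 on the log2 scale against naive and changed the split. At least 2-fold less 5hmC was then found at 32 in Th1 (16%, against 8.52% of all), 28 in Th2 (14%, against 8.79%), 37 in the library labelled iTreg (18.5%, against 8%) and 43 in the library labelled Th17 (21.5%, against 14.2%). At least 2-fold more was found at 17 in Th1 (8.50%, against 7.61%), 19 in Th2 (9.50%, against 7.38%), 28 in the library labelled iTreg (14%, against 7.33%) and 35 in the library labelled Th17 (17.5%, against 10.8%). Lower counts still exceeded higher ones in each library, and both directions were above the background.

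As deposited, 5hmC was below naive in each of the 4 differentiated libraries at 94 of the 200 (47.0%, against 43% of all) and above naive in each at 46 (23.0%, against 18.2%). In Th1 and Th2 alone, without the libraries labelled iTreg and Th17, 103 were below in both (51.5%, against 50.5%) and 60 above in both (30.0%, against 27.1%). After scaling, 68 were below in all 4 (34.0%, against 31.5%) and 61 above (30.5%, against 29.7%). Each of these shares lay within 5 percentage points of the background. The 46 above naive had a median of mean 5hmC of 53.8 and the 94 below naive had 22.6.

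Several gene areas had much lower 5hmC in the differentiated libraries than in naive cells. 1810008B01Rik, 1375 bases long on chromosome 8 (126829031 to 126830406), had 12.6 in Th1, 12.8 in Th2, 12.6 in the library labelled iTreg and 5.5 in the library labelled Th17, against 72.7 in naive cells. Eef2 had 41.2 in Th1, 39.2 in Th2, 28.2 in the library labelled iTreg and 16.9 in the library labelled Th17, against 84.9 in naive cells. Gm19886, which lies inside Eef2, and the neighbouring Dapk3 had the same order. All 3 of the Eef2 locus had 5mC within 1.5-fold across the libraries. Ezr, ezrin, which ties the membrane to actin, had 37.0, 32.5, 36.6 and 15.2 in the same 4 libraries, against 115.0 in naive cells, over a listed area of 1410 bases. Rgl2, an activator of Ral GTPases, had 56.9, 83.6, 63.1 and 34.3, against 153.2 in naive cells, and its neighbour H2-Ke2 had 49.6, 60.9, 44.5 and 23.7, against 108.3. Rltpr, a partner of CD28 in T cell costimulation, had 11.5 to 20.9 in these libraries, against 51.6 in naive cells. In all of these the library labelled Th17 had the least 5hmC.

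Higher 5hmC than in naive cells was found at genes and at pseudogenes of low signal. Oxct2b, the testis ketone body enzyme gene whose promoter is printed above, had 43.8 in Th1, 46.7 in Th2, 37.4 in the library labelled iTreg and 48.3 in the library labelled Th17, against 21.4 in naive cells. Slc30a10, a manganese exporter gene, had 61.9 to 68.4 in the differentiated libraries, against 34.4 in naive cells, and the overlapping Gm2061 had 76.1 to 89.1, against 40.8. Gm6089 was listed at 0 in naive cells, so no fold is given, and had 2.7 in Th1, 6.2 in Th2, 9.6 in the library labelled iTreg and 3.9 in the library labelled Th17. Gm18694 had 2.9 to 9.4 in the same libraries, against 0.7 in naive cells. The naive values of both lie near the rounding step of 0.1, and all of these values lie below the median of the 200.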

How the data were processed

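DNA immunoprecipitation sequencing of mouse T cell DNA gave 12 libraries, 1 for each group. The signal values were deposited by the authors as 1 table of averages per gene area, all at or above 0 and given to 1 decimal. The submitters' processing notes name CASAVA 1.7.0 and mouse build mm9. How reads were aligned, counted and scaled is not given in the sources used here, so depth is unknown and no interval could be computed. Gene area coordinates are on mm9 as deposited, with the counting base not stated. Columns were matched to libraries by sample number, and 0 value columns were left unused.

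Autosomal gene areas of at least 1000 bases were taken, the limit of 2.5 on mean 5mC was applied, and a repeated name was represented by its row of highest mean 5mC and 5hmC; Gcnt4 is the only name for which the order of these steps mattered. Log2 differences used log2(value + 0.2), and a difference of at least 1 either way was counted. Other limits, lengths, pseudocounts, median-ratio scaling within an antibody and a filter on low values were also tried. The gene areas, lists and classes were chosen with earlier results of these data known, and the set of testis genes and further gene areas beside them were picked after their values were seen. Gene areas were named by rank: highest 5mC, highest and lowest input, IgG, 5hmC, length, range and difference from naive, those at the limit, list members, and up to 3 per class. Results for some gene areas are not reported here. Promoters and gene types came from RefSeq, GRCm38.p6, matched by gene ID. Steps were tested on simulated data. Python 3.11.15, numpy 2.4.6, pandas 2.3.3, scipy 1.17.1 and matplotlib 3.10.9 were used.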

Additional observations from a re-analysis of the deposited data

How the results depend on the processing

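Each group held 1 library, so no replicate could be left out. No paired analysis was possible because each group held 1 library. A limit of 2.0 on mean 5mC gave 605 gene areas and a limit of 3.5 gave 54, with a median 5hmC of 54.2, a median input of 2.9 and a median IgG of 2.95 at 3.5. Leaving each 5mC library out of the mean gave 188 to 230. Keeping 1 row per name first gave 199. A length of at least 3000 bases left 84, with a median 5hmC of 40.4 and a median IgG of 2, and counts by cell type were lower there by construction, apart from 5mC higher in Th17, which was 0 in both: for 5mC higher, 0 in Th1, 0 in Th2 and 1 in iTreg; for 5mC lower, 0, 0, 1 and 1 in Th1, Th2, iTreg and Th17; for 5hmC higher, 3, 4, 3 and 5; for 5hmC lower, 18, 16, 17 and 23. With a pseudocount of 1, the 5mC counts were 1, 0, 0 and 0 higher and 0, 3, 5 and 4 lower in Th1, Th2, iTreg and Th17, while all 8 5hmC counts stayed within 1.5 times. With median-ratio scaling, the 5mC counts higher were 1 in Th1 and 2 in Th17 and those lower were 5 in iTreg and 3 in Th17, with 48 gene areas above naive in all 4 libraries. The 5hmC counts higher were 17, 19, 28 and 35, the count lower in the library labelled Th17 was 43, and median 5hmC was 23. A filter on low values kept 5 of 16 background shares within 1.5 times. Counts of 5mC differences thus depend on the pseudocount, the scaling and the length limit. Without the 5hmC libraries labelled iTreg and Th17, an alternative chosen after seeing the data, median 5hmC was 24.9, and the counts of gene areas above the median of the others and at 100 or more stayed within 1.5 times. The cause of the other changes was not tested.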

Other observations

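Further gene areas among the 200 richest in 5mC had lower 5hmC in the differentiated libraries than in naive cells. Tbxa2r, the thromboxane receptor gene, had a 5hmC signal of 24.0 in Th1, 26.2 in Th2, 29.5 in the library labelled iTreg and 14.9 in the library labelled Th17, against 79.9 in naive cells. Ptger1, a receptor gene of prostaglandin E2, had 23.4, 25.2, 28.7 and 16.7 in the same 4 libraries, against 78.1 in naive cells. Their 5mC lay between 2.4 and 3.1 in all 5 libraries. The gene areas of Plcxd1 and Gtpbp6 on chromosome 5 overlap, so their values are not independent. They had 28.5 to 60.6 and 21.7 to 56.9 in the differentiated libraries, against 93.4 and 87.9 in naive cells, with Th1 the lowest at both.

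Gm13403, a long noncoding RNA gene on chromosome 2, had a mean 5hmC of 354 with an input of 3.1 and an IgG of 7.5, and its 5hmC was 294.5 to 449.5 in the differentiated libraries, against 203.0 in naive cells. Gm5626, a pseudogene on chromosome 13, had 309.9 to 354.7, against 187.7 in naive cells, over an input of 6.5. Hoxa5, a homeobox gene of body patterning, had low 5hmC, with 7.8 in Th1, 14.7 in Th2, 8.3 in the library labelled iTreg, 10.3 in the library labelled Th17 and 8.8 in naive cells. Its 5mC was 4.5 in Th1, 3.7 in Th2, 2.1 in iTreg, 2.3 in Th17 and 4.0 in naive cells. Arl14, a small GTPase gene, had the lowest input of the 200, 1.1, an IgG listed at 0 and a mean 5mC of 3.14. These gene areas were picked after their values were seen.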
